A study of Mus musculus with 6 samples.

Results

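The Slc25 family of mitochondrial solute carriers was described in bEnd.3 cells, a mouse brain endothelial line, after knockdown of Npc1. Members were the rows of the deposited table whose gene symbol starts with Slc25a and whose mean over the 6 libraries was at least 1 FPKM (mapped fragments scaled for transcript length and library size). Of 42 Slc25a rows among 15917 genes, 33 met this rule and 9 lay under it. Every member therefore passed the filter on low values, because the filter is part of the rule. The rule used the level but not the difference between the groups. The libraries came from 3 samples with a short hairpin RNA against Npc1 (replicates 4, 5 and 6) and 3 samples with a control hairpin (replicates 1, 2 and 3), all of the parental line with no other treatment named. The control samples are called WT in a second label. Whether replicates were separate cultures, or whether the 3 knockdown samples carried the same hairpin sequence, is not given in the sources used here, so the p-values cover the spread among these 6 samples, which may be technical.

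Carriers of this family sit mostly in the inner mitochondrial membrane and exchange nucleotides, phosphate, organic acids, amino acids and cofactors between the matrix and the cytosol. The outer membrane lets small molecules pass through porins, so these carriers set which metabolites cross the tighter inner membrane. The citrate carrier is the best known link to lipid synthesis, because exported citrate is split in the cytosol to give the acetyl-CoA from which sterols and fatty acids are built. Npc1 encodes a membrane protein that exports cholesterol from lysosomes.

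Npc1 FPKM was 0.45, 1.20 and 0.97 in knockdown replicates 4, 5 and 6, and 6.31, 6.63 and 7.27 in control replicates 1, 2 and 3, with no overlap (exact two-sided permutation p = 0.1, the smallest that 3 against 3 samples allow; limma log2 fold change -2.07, SE 0.16, adjusted p = 0.000723). All 10 endothelial markers examined, among them Pecam1 and Cdh5, were above the filter. Their summed level was 1807 to 1891 FPKM in knockdown libraries and 1894 to 1925 FPKM in control libraries. Of these markers 1 rose and 0 fell, against 12.0% and 5.89% of all tested genes. The 4 mural cell markers in the table summed to 0.84 to 1.11 FPKM in knockdown libraries and 0.67 to 1.06 FPKM in control libraries, and the 3 fibroblast markers to 0.46 to 0.79 and 0.77 to 1.13 FPKM; no marker of astrocytes, leukocytes or neurons in the table passed the filter. Knockdown replicate 4 stood apart from the other libraries. Its correlation with replicates 5 and 6 across genes was 0.982 and 0.989, against 0.996 between those 2 and 0.996 to 0.998 among controls. With genes split by transcript GC content into 5 equal bins, the GC-richest bin exceeded the GC-poorest by 0.67 (log2, median deviation from the mean of all libraries) in replicate 4, against -0.12 and 0.06 in replicates 5 and 6 and -0.30 to -0.098 in controls. In a bulk sample, fewer cells of a type and less RNA per cell cannot be told apart.

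The promoters of 3 carriers are shown: the pair of risen carriers that hold an E-box, and the carrier with the lowest log2 fold change. They do not stand for the others, since Slc25a39, which rose, had none of the 5 motifs, and Slc25a20 and Slc25a25, which rose, had no E-box. They run from 250 bases before to 50 bases after the annotated start, from RefSeq on GRCm38.p6; the deposited table names no build. Slc25a1, the citrate carrier, lies at chr16:17928170-17928469 on the minus strand, Slc25a33, a pyrimidine nucleotide carrier, at chr4:149774218-149774517 on the minus strand, and Slc25a24, an ATP-Mg/phosphate carrier, at chr3:109122899-109123198 on the plus strand. Capitals mark matches to the letters searched on both strands.
Slc25a1: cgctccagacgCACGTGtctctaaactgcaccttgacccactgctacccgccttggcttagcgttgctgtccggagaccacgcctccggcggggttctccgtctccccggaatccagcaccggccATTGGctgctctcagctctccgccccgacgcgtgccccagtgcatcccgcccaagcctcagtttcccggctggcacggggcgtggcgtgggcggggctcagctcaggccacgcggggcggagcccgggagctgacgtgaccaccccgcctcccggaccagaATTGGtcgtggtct
Slc25a33: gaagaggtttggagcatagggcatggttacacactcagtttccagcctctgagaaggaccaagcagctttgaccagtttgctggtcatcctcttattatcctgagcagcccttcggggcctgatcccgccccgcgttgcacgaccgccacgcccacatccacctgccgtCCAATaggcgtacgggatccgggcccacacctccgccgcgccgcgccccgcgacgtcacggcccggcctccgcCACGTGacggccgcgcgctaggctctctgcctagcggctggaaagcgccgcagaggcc
Slc25a24: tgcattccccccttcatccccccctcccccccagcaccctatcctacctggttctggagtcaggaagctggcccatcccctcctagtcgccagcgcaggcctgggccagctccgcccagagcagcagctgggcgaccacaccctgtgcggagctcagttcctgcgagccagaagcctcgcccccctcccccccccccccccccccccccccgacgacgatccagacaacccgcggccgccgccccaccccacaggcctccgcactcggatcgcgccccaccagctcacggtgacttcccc

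Promoters were found for 26 of the 33 members. Slc25a44, which rose, and Slc25a32, which fell, were among those without one. The E-box CACGTG, a sequence that reads the same on both strands, was present in 6 of the 26, against 8.09% of 27025 genes. The 6 members were Slc25a1, Slc25a13, Slc25a14, Slc25a15, Slc25a33 and Slc25a36. Of these, Slc25a1 and Slc25a33 rose and the others did not pass. The 27025 are all genes with a RefSeq promoter. Unlike the members, they were not limited to a mean of at least 1 FPKM. The CCAAT box was present in 14 of the 26, against 41.1% of genes, with matches in Slc25a1, Slc25a25 and Slc25a33 among the carriers that rose. The ETS core CCGGAAG was present in 6 members, among them Slc25a20 and Slc25a25, against 9.93% of genes. The NRF1 site, given here by its name only, was present in 1 member, Slc25a3, against 5.19% of genes. The sterol regulatory element letters TCACNCCAC were in none of the 26 windows, against 1.44% of genes. A gene with several starts was counted once if any of its windows held the letters, and none of the 5 motifs contains another.

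The carriers spanned a wide range of levels. Slc25a5, the ADP/ATP carrier of dividing cells, was the most abundant, with 886.1, 753.5 and 789.9 FPKM in knockdown replicates 4, 5 and 6 and 754.1, 876.1 and 840.9 FPKM in control replicates 1, 2 and 3. Slc25a3, which brings phosphate and copper into the matrix, had 598.7, 487.6 and 537.8 FPKM in the knockdown and 517, 549.4 and 552.2 FPKM in the control. Slc25a4, the ADP/ATP carrier known from heart and muscle, had 329.8, 353.9 and 329.3 FPKM in the knockdown and 340.9, 351.5 and 358.9 FPKM in the control. Knockdown and control libraries overlapped for all 3 genes, and none of them passed the test (limma adjusted p = 0.862, 0.997 and 0.55). These 3 genes held 73.5% ± 0.852 of the summed FPKM of the family in knockdown libraries and 74.9% ± 0.977 in control libraries (SD, n = 3 each). Below them, 10 members averaged between 20 and 100 FPKM, 17 between 5 and 20 FPKM and 3 between 1 and 5 FPKM. The median level of the members was 12.2 FPKM, against 15.5 FPKM over all tested genes.

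**Figure D1:**
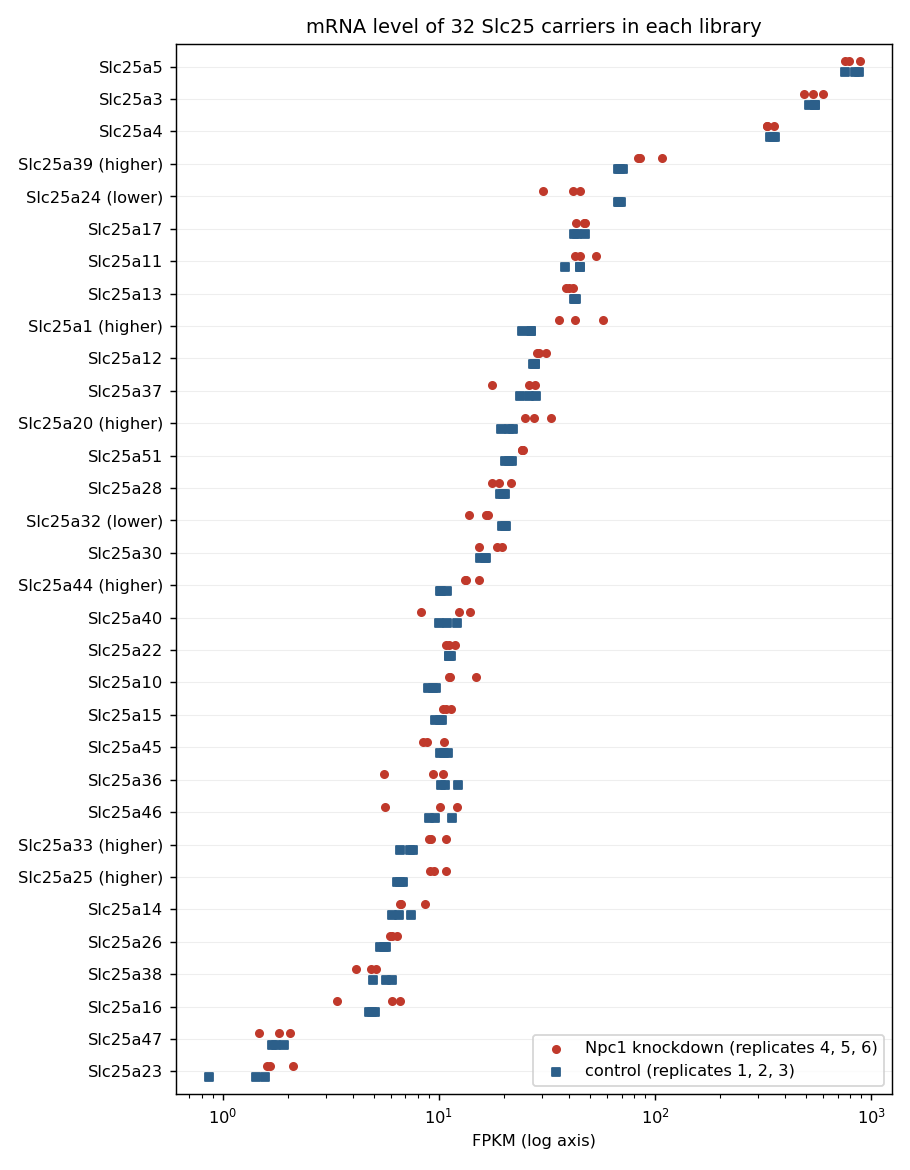
FPKM of 32 of the 33 carriers (log axis), ordered by mean level, with the 3 knockdown libraries as circles above the 3 control libraries as squares; labels in brackets give the direction of the carriers past an adjusted p of 0.05. Slc25a5, Slc25a3 and Slc25a4 lie above 300 FPKM in every library, and the knockdown and control points separate for Slc25a24 and Slc25a1.

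The summed level of the family, most of it Slc25a5, Slc25a3 and Slc25a4, differed between the groups by less than the spread between libraries. Single carriers changed. The members summed to 2437, 2192 and 2259 FPKM in the knockdown and 2182, 2346 and 2329 FPKM in the control, or 0.327% ± 0.00463 and 0.329% ± 0.0058 of a library's summed FPKM (SD, n = 3 each). Knockdown and control sums overlapped. Without Slc25a5, Slc25a3 and Slc25a4, the members summed to 622.76, 596.82 and 601.85 FPKM in knockdown replicates 4, 5 and 6. The same sum was 570.53, 569.04 and 576.53 FPKM in control replicates 1, 2 and 3, without overlap. This difference was not tested. Groups were compared on log2(FPKM + 1) with limma over the 10400 genes at or above 1 FPKM on average; "rose" and "fell" mean a Benjamini-Hochberg adjusted p under 0.05 over all of them. On this scale 6 members rose, 2 fell and 25 did not pass. Over all tested genes, 12.0% were called higher, 5.89% lower and 17.9% in either direction, so the family's 18.2%, 6.06% and 24.2% were near the background. The median log2 fold change was 0.061 over the members and 0.026 over all tested genes. In 13 members every knockdown value lay above every control value and in 3 below, or 39.4% and 9.09%, against 27.4% and 16.1% of all tested genes. All 8 called members were among these 16. The authors' deposited table gives a q-value under 0.05 to 5 of the 6 that rose, to both that fell and to no other member; at this threshold 9.54% of the tested genes were higher and 7.67% lower (6.48% and 5.60% of all 15917 genes).

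**Figure D2:**
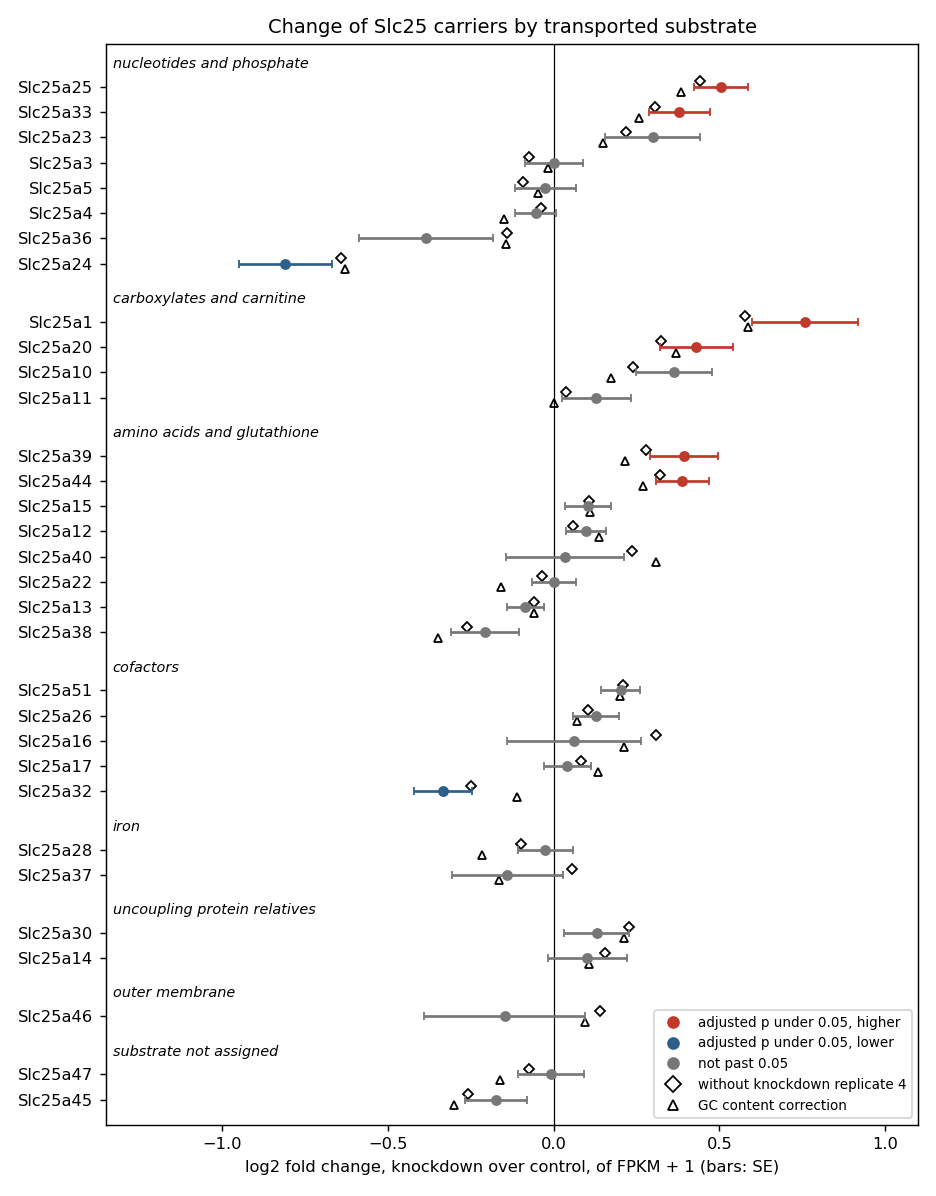
Log2 fold change of FPKM + 1, knockdown over control, for the same 32 carriers grouped by transported substrate (circles; bars are SE), with the value without knockdown replicate 4 (diamonds) and after the GC content correction (triangles). Slc25a1, at 0.76, and Slc25a24, at -0.81, are the extremes, and both alternatives keep their direction.

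The carriers of adenine nucleotides with magnesium and phosphate changed in opposite directions. Slc25a24, a calcium-regulated exchanger of ATP-Mg for phosphate, had 30.2, 44.9 and 41.9 FPKM in knockdown replicates 4, 5 and 6 and 69.5, 67.3 and 67.8 FPKM in control replicates 1, 2 and 3. All 3 knockdown libraries were low, replicate 4 the lowest, and the groups were far apart. Slc25a24 fell to a ratio of 0.572 (limma log2 -0.81, SE 0.14, adjusted p = 0.0111). Its paralog Slc25a25 had 10.8, 9.53 and 9.13 FPKM in the knockdown and 6.79, 6.61 and 6.40 FPKM in the control. It rose 1.49-fold (limma log2 0.51, SE 0.08, adjusted p = 0.00874). The third paralog, Slc25a23, the member nearest above the level limit, had 2.11, 1.66 and 1.61 FPKM in the knockdown and 1.43, 0.86 and 1.57 FPKM in the control, and it did not pass although the groups did not overlap (limma adjusted p = 0.191). The 3 genes together summed to 43.1, 56.1 and 52.6 FPKM in the knockdown and 77.7, 74.8 and 75.7 FPKM in the control. Slc25a24 made up 76.6% ± 5.60 of that sum in knockdown libraries and 89.6% ± 0.33 in control libraries, and Slc25a25 19.8% ± 4.51 and 8.68% ± 0.201 (SD, n = 3 each). Slc25a24 no longer passed when control replicate 1, 2 or 3 was left out (limma adjusted p = 0.0589, 0.0508 and 0.0566), nor did Slc25a25 when control replicate 3 was left out (0.0557). Slc25a25 shares genomic span with Naif1, which did not pass (limma log2 0.15, adjusted p = 0.311); whether reads were counted by strand is not given.

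Of the 2 pyrimidine nucleotide carriers, Slc25a33 rose and Slc25a36 did not pass. Slc25a33 had 10.8, 8.98 and 9.21 FPKM in the knockdown and 6.61, 7.32 and 7.60 FPKM in the control, a ratio of 1.34 (limma log2 0.38, SE 0.09, adjusted p = 0.0337). Slc25a36 had 5.59, 10.4 and 9.38 FPKM in the knockdown and 12.2, 10.2 and 10.7 FPKM in the control, with replicate 4 far below the other 5 libraries (limma log2 -0.38, adjusted p = 0.224). Slc25a33 made up 53.9% ± 10.5 of the sum of the pair in knockdown libraries and 39.4% ± 3.74 in control libraries (SD, n = 3 each), while the sum averaged 18.1 and 18.2 FPKM. Slc25a33 no longer passed when control replicate 1, 2 or 3 or knockdown replicate 6 was left out (limma adjusted p = 0.142, 0.103, 0.0952 and 0.0893), nor with median centring (0.0678), quantile normalisation (0.0556) or no filter on low values (0.0583). Of the 8 members in the nucleotide and phosphate group, 2 rose and 1 fell, against 12.0% and 5.89% of all tested genes, shares that serve as the background for each substrate group. The share of Slc25a4 in the sum of the 2 ADP/ATP carriers was 29.5% ± 2.42 in knockdown libraries and 29.9% ± 1.25 in control libraries (SD, n = 3 each). The mouse genome holds near-identical copies of Slc25a5, and how the authors assigned their reads is not given, so its level is uncertain.

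**Figure D3:**
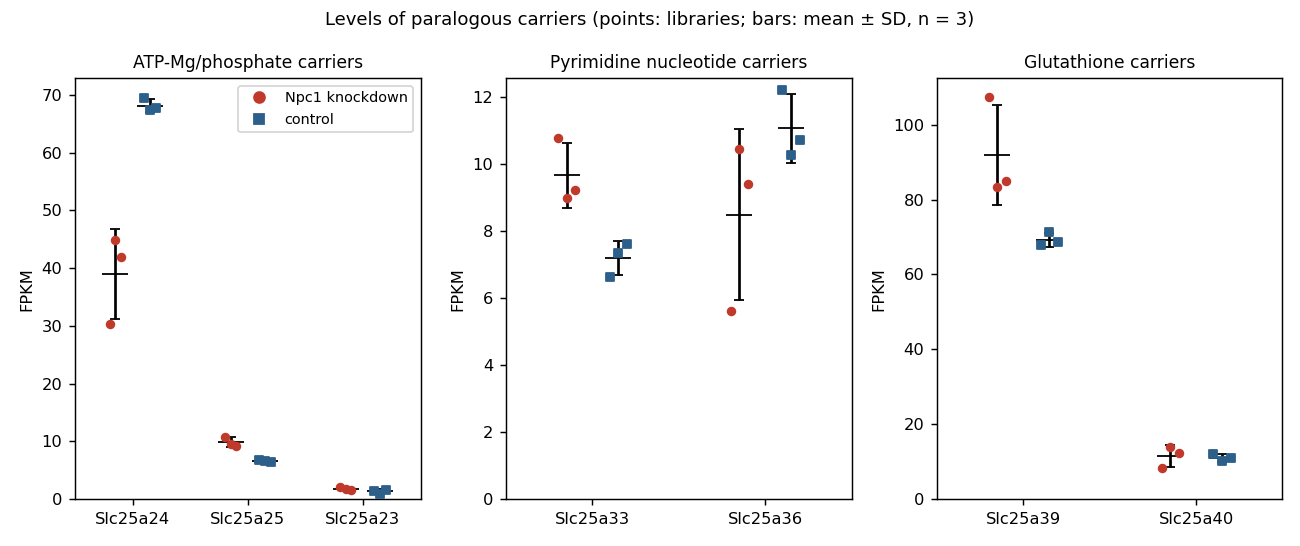
FPKM of paralogous carriers in each library (circles, knockdown; squares, control), with the mean and SD of 3 libraries as bars. Knockdown points lie below control points for Slc25a24 and above them for Slc25a25, Slc25a33 and Slc25a39, and by a small margin for Slc25a23, while the groups overlap for Slc25a36 and Slc25a40.

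Carriers of citrate and acylcarnitine rose. Slc25a1, which exports citrate from the matrix, had 57.5, 36.0 and 42.4 FPKM in knockdown replicates 4, 5 and 6 and 24.4, 26.5 and 26.8 FPKM in control replicates 1, 2 and 3. Every knockdown library exceeded every control library, with replicate 4 the highest. The ratio of means was 1.75 (limma log2 0.76, SE 0.16, adjusted p = 0.021), and without replicate 4 the log2 fold change was 0.58. Slc25a20, which brings acylcarnitines into the matrix for fatty acid oxidation, had 32.98, 24.9 and 27.6 FPKM in the knockdown and 19.3, 22.01 and 21.0 FPKM in the control (ratio 1.37, limma log2 0.43, SE 0.11, adjusted p = 0.0389). Slc25a10, the dicarboxylate carrier, had 14.8, 11.3 and 11.1 FPKM in the knockdown and 9.43, 9.71 and 8.91 FPKM in the control. Its groups did not overlap, but it did not pass (limma log2 0.36, adjusted p = 0.0696). Slc25a11, which exchanges oxoglutarate for malate in the malate-aspartate shuttle, had 53.2, 42.5 and 45.1 FPKM in the knockdown and 38.4, 44.8 and 45.0 FPKM in the control, with overlapping groups (adjusted p = 0.409). It shares genomic span with Rnf167, which did not pass (limma log2 0.19, adjusted p = 0.212). In this group of 4 members 2 rose and 0 fell (12.0% and 5.89% over all tested genes); their median was 0.40 on the log2 scale. The limma adjusted p of Slc25a1 was 0.0944, 0.0741, 0.0799 and 0.0689 without control replicate 1, 2 or 3 and knockdown replicate 6. That of Slc25a20 was 0.153, 0.0929, 0.128 and 0.106 without the same libraries, 0.0774 with median centring, 0.0546 with quantile normalisation and 0.0629 with no filter on low values.

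Among carriers of amino acids and glutathione, 2 of 8 rose and 0 fell (12.0% and 5.89% over all tested genes). Slc25a39, which imports glutathione into mitochondria, had 107.4, 83.2 and 85.1 FPKM in the knockdown and 67.7, 71.2 and 68.8 FPKM in the control. Knockdown libraries were all higher, replicate 4 most so, and the ratio was 1.33 (limma log2 0.39, SE 0.10, adjusted p = 0.0417). Its paralog Slc25a40 had 8.26, 13.9 and 12.3 FPKM in the knockdown and 12.1, 10.01 and 10.8 FPKM in the control and did not pass (adjusted p = 0.904); Slc25a39 held 88.6% ± 3.75 of the sum of the pair in knockdown libraries and 86.3% ± 1.43 in control libraries (SD, n = 3 each). Slc25a44, a carrier of branched-chain amino acids, had 15.3, 13.3 and 13.2 FPKM in the knockdown and 10.2, 10.2 and 10.8 FPKM in the control, a ratio of 1.34 (limma log2 0.39, SE 0.08, adjusted p = 0.02). The limma adjusted p of Slc25a39 was 0.152, 0.111, 0.143 and 0.0831 without control replicate 1, 2 or 3 and knockdown replicate 6, 0.0878 with median centring and 0.0656 with no filter on low values. That of Slc25a44 was 0.0964, 0.0865, 0.0749 and 0.0563 without the same libraries.

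The aspartate/glutamate carriers of the malate-aspartate shuttle did not pass, although the groups did not overlap for either. Slc25a13 had 38.8, 40.0 and 41.7 FPKM in the knockdown and 42.6, 43.1 and 42.3 FPKM in the control (limma log2 -0.085, SE 0.06, adjusted p = 0.317). Slc25a12 averaged 29.6 FPKM in the knockdown and 27.6 FPKM in the control (limma log2 0.097, SE 0.06, adjusted p = 0.294). Slc25a13 held 57.6% ± 1.90 of the sum of this pair in knockdown libraries and 60.7% ± 0.456 in control libraries (SD, n = 3 each). Slc25a38, a glycine carrier needed for heme synthesis, had the lowest log2 fold change of the amino acid group. It had 5.14, 4.12 and 4.86 FPKM in the knockdown and 6.05, 4.98 and 5.72 FPKM in the control (limma log2 -0.21, adjusted p = 0.202), with overlapping groups. The ornithine carrier Slc25a15 averaged 10.9 and the glutamate carrier Slc25a22 11.2 FPKM in the knockdown, against 10.03 and 11.2 FPKM in the control, and neither passed (adjusted p = 0.316 and 0.99). Slc25a18, the other glutamate carrier, was listed at 0, 0.01 and 0 FPKM in the knockdown and at 0 in all 3 control libraries.

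Of 6 cofactor carriers 0 rose in limma and 1 fell (12.0% and 5.89% over all tested genes). At an unadjusted p under 0.05, 1 was higher and 1 lower (21.9% and 12.8%). Slc25a32, a carrier of folate, had 13.8, 16.9 and 16.6 FPKM in the knockdown and 20.4, 19.5 and 20.3 FPKM in the control. Its knockdown libraries were all lower and the ratio was 0.786 (limma log2 -0.33, SE 0.09, adjusted p = 0.042). It no longer passed in limma when control replicate 1, 2 or 3 or knockdown replicate 6 was left out (adjusted p = 0.157, 0.113, 0.152 and 0.0933), with TPM scaling (0.117), with no filter on low values (0.0625) or after the GC content correction (log2 -0.11, adjusted p = 0.308). Slc25a51, which brings NAD into mitochondria, had 24.1, 24.6 and 24.3 FPKM in the knockdown and 21.8, 20.2 and 21.2 FPKM in the control. Its groups did not overlap, and it missed the threshold (limma log2 0.20, SE 0.06, adjusted p = 0.0575). The S-adenosylmethionine carrier Slc25a26 averaged 6.14 and 5.54 FPKM and Slc25a16, linked to coenzyme A, 5.35 and 4.92 FPKM in knockdown and control libraries; neither passed (adjusted p = 0.236 and 0.847). Slc25a26 shares genomic span with Lrig1, a gene that rose (limma log2 0.44, adjusted p = 0.00513). Slc25a17, the family's carrier in peroxisomes rather than mitochondria, had 43.0, 46.7 and 47.3 FPKM in the knockdown and 42.2, 43.5 and 47.2 FPKM in the control (adjusted p = 0.693).

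The mitoferrins, which import iron, did not pass, also at an unadjusted p under 0.05. Slc25a37 had 17.6, 27.9 and 26.2 FPKM in the knockdown and 28.2, 23.7 and 26.2 FPKM in the control, with replicate 4 lowest (limma log2 -0.14, SE 0.17, adjusted p = 0.571). Slc25a28 had 21.5, 19.0 and 17.6 FPKM in the knockdown and 20.1, 19.7 and 19.1 FPKM in the control (log2 -0.025, SE 0.08, adjusted p = 0.849). The relatives of uncoupling proteins did not pass either: Slc25a30 had 15.4, 19.7 and 18.6 FPKM in the knockdown and 16.4, 16.6 and 15.6 FPKM in the control, and Slc25a14 had 6.65, 6.61 and 8.61 FPKM in the knockdown and 7.43, 6.10 and 6.57 FPKM in the control. Slc25a46, an outer membrane member tied to mitochondrial fusion and fission, had 5.66, 12.1 and 10.1 FPKM in the knockdown and 11.5, 8.97 and 9.62 FPKM in the control; the spread among its knockdown libraries exceeded the difference of the means (limma log2 -0.15, SE 0.24, adjusted p = 0.684). Slc25a45 averaged 9.27 FPKM in the knockdown and 10.6 FPKM in the control (limma log2 -0.17, adjusted p = 0.228). Slc25a47 averaged 1.78 and 1.79 FPKM (log2 -0.0077, adjusted p = 0.963).

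The 9 rows under the level limit were Slc25a29, Slc25a42, Slc25a53, Slc25a35, Slc25a27, Slc25a2, Slc25a48, Slc25a21 and Slc25a18, with means between 0.00167 and 0.902 FPKM. The one nearest the limit was Slc25a29, a carrier of basic amino acids, with 1.38, 1.1 and 1.25 FPKM in the knockdown and 0.65, 0.49 and 0.54 FPKM in the control, and these groups did not overlap. The authors' deposited table gives Slc25a29 a log2 ratio of 1.13 and a q-value of 0.0232. When no filter on low values was used, its limma log2 fold change was 0.52 (SE 0.07, adjusted p = 0.00944), and none of the other 8 passed. The coenzyme A carrier Slc25a42 had 0.68, 0.81 and 0.94 FPKM in the knockdown and 0.69, 0.46 and 0.43 FPKM in the control.

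Transcript GC content moved with the carriers' values. The 6 that rose had a GC content of 50.1% to 59.7% in their longest coding transcript, the 2 that fell 42.5% and 41.2%, and the 25 others 39.7% to 60.9%. Across the 33 members the correlation of log2 fold change with GC content was 0.53, and across the 10247 tested genes with a value it was 0.44; genes are not independent and share the 6 libraries. Within the knockdown group, the difference of replicate 4 from the mean of replicates 5 and 6 correlated with GC content at 0.82 across the members. Without replicate 4, all 8 calls were kept and 5 more members passed: Slc25a10, Slc25a16, Slc25a30 and Slc25a51 as higher and Slc25a45 as lower. That gave 10 higher and 3 lower, against 18.3% and 10.1% of all tested genes. After a correction for GC content, 7 of the 8 calls were kept, Slc25a32 being the one lost, and Slc25a30, Slc25a40 and Slc25a51 passed as higher and Slc25a28, Slc25a38 and Slc25a45 as lower, giving 9 and 4 against 13.2% and 11.8%. With both together, an alternative chosen after seeing the data, 11 were higher and 5 lower, against 16.3% and 16.1%, and all 8 calls were kept. All 8 called carriers lay closer to 0 under both together than with all 6 libraries and no correction. The log2 fold change was then 0.48 for Slc25a1, -0.60 for Slc25a24 and 0.37 for Slc25a25. It was 0.17 for Slc25a39, against 0.39 with all libraries and no correction, 0.23 against 0.38 for Slc25a33, 0.25 against 0.39 for Slc25a44, 0.27 against 0.43 for Slc25a20 and -0.18 against -0.33 for Slc25a32. These last 5 carriers thus moved by over 1.5 times, as did Slc25a1. The part of GC content and of replicate 4 in these differences was not tested for any carrier.

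The remaining settings are given with the share of all tested genes called beside each count of carriers. In 4 of them the counts were 6 higher and 2 lower: a mean of at least 5 FPKM (13.1% and 5.66%), a pseudocount of 0.1 (12.0% and 5.64%), no intensity trend (11.8% and 5.87%) and robust estimation (11.7% and 5.64%). Without knockdown replicate 5, 6 carriers were higher and 2 lower, against 14.9% and 10.4% of all tested genes. Without knockdown replicate 6 the counts were 1 and 1 (4.56% and 2.38%), without control replicate 1 they were 1 and 0 (3.19% and 1.62%), without control replicate 2 again 1 and 0 (4.12% and 2.13%), and without control replicate 3 both were 0 (2.97% and 1.54%). In that last limma fit 8 carriers were higher and 2 lower at an unadjusted p under 0.05, against 16.1% and 8.24% of all tested genes. With all 6 libraries the numbers were also 8 and 2, against 21.9% and 12.8%. Slc25a25 was the carrier that still passed without control replicate 1 or 2. TPM scaling gave 7 higher and 1 lower (13.5% and 4.16%), with Slc25a10 gained. Median centring gave 3 and 2 (8.12% and 7.26%), quantile normalisation 4 and 2 (10.9% and 7.61%), and no filter on low values 3 and 1 (6.73% and 3.69%).

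**Figure D4:**
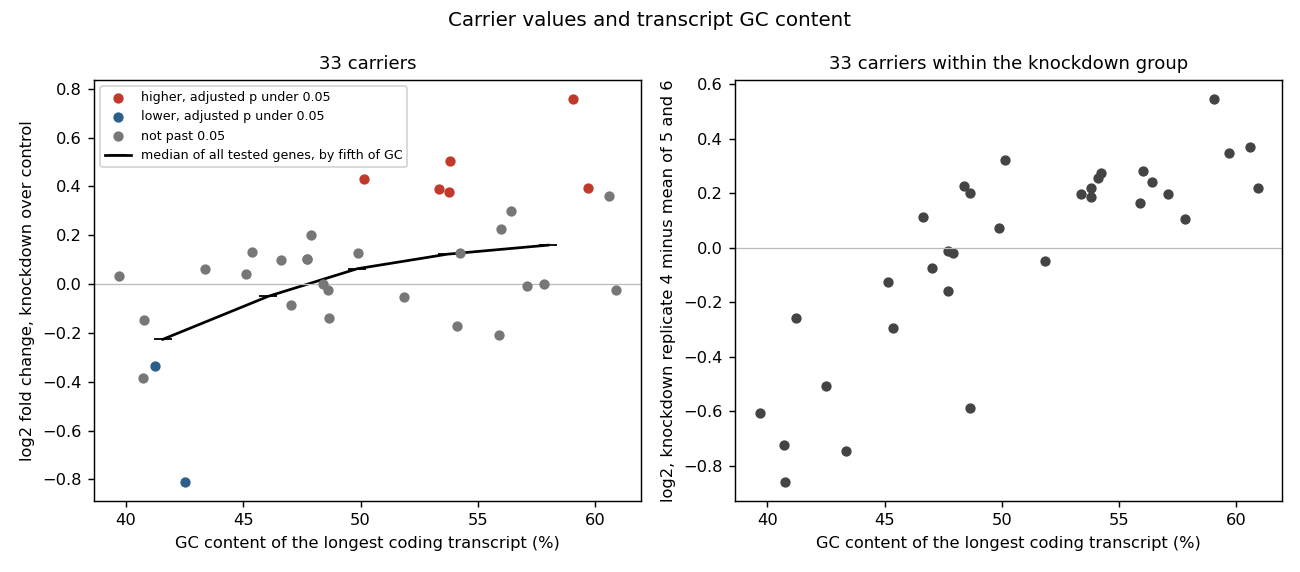
Left, log2 fold change of the 33 carriers against the GC content of their longest coding transcript, with the median of all tested genes in 5 equal bins of GC content as a line (-0.23 in the GC-poorest bin, 0.16 in the GC-richest); right, log2 difference of knockdown replicate 4 from the mean of replicates 5 and 6 in the same carriers. In both panels carriers of low GC content tend to lie below 0, and Slc25a24 lies far below the median line.

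Of 84 tested genes in 8 lists of related mitochondrial functions, 9 rose and 1 fell. These were 10.7% and 1.19%, against 12.0% and 5.89% over all tested genes. Of 12 further carriers of the inner membrane and family members under other names, 8 were tested, 0 rose and 1 fell. Sfxn1, a mitochondrial serine carrier, had 23.5, 22.9 and 23.8 FPKM in the knockdown and 32.6, 33 and 30.8 FPKM in the control (ratio 0.728, limma log2 -0.44, SE 0.06, adjusted p = 0.00502), and its call was kept in each of 16 alternatives. Mtch1, a family member of the outer membrane, had 185.8, 129.4 and 143.6 FPKM in the knockdown and 108.7, 118.9 and 115.2 FPKM in the control and did not pass (adjusted p = 0.0758). The subunits of the pyruvate carrier lay on opposite sides, without overlap of the groups: Mpc2 had a ratio of 1.13 (limma adjusted p = 0.124) and Mpc1 a ratio of 0.904 (adjusted p = 0.191), and neither passed.

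Some genes of related pathways rose, in lists of 9 to 11 genes, against 12.0% called higher and 5.89% lower over all tested genes. In the list of malate-aspartate and citrate enzymes 2 of 10 rose and 0 fell. Idh1, the cytosolic NADP-linked isocitrate dehydrogenase, had 22.6, 27.7 and 26.1 FPKM in the knockdown and 11.8, 12.1 and 12.5 FPKM in the control, a ratio of 2.09 (limma log2 1.0, SE 0.09, adjusted p = 0.0012). Me1, the cytosolic malic enzyme, rose 1.35-fold (adjusted p = 0.00486), and Got1 and Cs did not pass (adjusted p = 0.142 and 0.147). In the carnitine and fatty acid oxidation list 2 of 9 rose: Crat, carnitine acetyltransferase, 1.31-fold (adjusted p = 0.0173), and Cpt1a, the outer membrane carnitine palmitoyltransferase, 1.21-fold (adjusted p = 0.0382). In the iron-sulfur and heme list 3 of 11 rose and 0 fell. The heme synthesis genes Cpox and Fech rose 1.39-fold (limma adjusted p = 0.00462) and 1.31-fold (adjusted p = 0.0183). The transporter gene Abcb10 rose 1.24-fold (limma adjusted p = 0.0331). Of the 10 related genes called, Idh1, Me1, Cpox and Sfxn1 passed in all 16 alternatives. Crat, Cpt1a, Fech and Abcb10 no longer passed without control replicate 1, 2 or 3 or knockdown replicate 6, where the adjusted p was 0.0659 to 0.0901, 0.0988 to 0.164, 0.0557 to 0.0866 and 0.112 to 0.15. Crat and Fech passed in the other 12 of the 16. Cpt1a passed in 10, being lost also with median centring (0.0975) and quantile normalisation (0.0775). Abcb10 passed in 7, being lost also with no filter on low values (0.0534), TPM scaling (0.0599), median centring (0.0678) and the GC content correction (log2 0.15 against 0.27, adjusted p = 0.11).

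Of 16 genes of the machinery that imports and inserts carriers, 0 rose and 0 fell in limma. Over all tested genes 12.0% rose and 5.89% fell, the background for each list in this paragraph. With 1 library left out, 0 to 1 import genes were higher, against 2.97% to 18.3% of all tested genes. In the same fits 0 to 4 were lower, against 1.54% to 10.4%. With all libraries, 6 of the 16 had an unadjusted p under 0.05, against 34.7% of all tested genes. The 4 smallest belonged to Timm8a1 (ratio 0.869), Tomm7 (0.852), Timm8b (1.21) and Timm9 (0.862). Of 9 tested regulators of mitochondrial biogenesis 0 rose and 0 fell, and 1, Polg, had an unadjusted p under 0.05 (ratio 1.21). With 1 library left out, 0 of these regulators were higher and 0 to 1 lower. Tfam, which packages mitochondrial DNA, had a ratio of 0.852 (adjusted p = 0.19). Of 11 genes of fusion, fission and cristae 1 rose, Chchd6, a cristae protein gene, with 21.0, 14.5 and 15.6 FPKM in the knockdown and 11.5, 12.0 and 11.4 FPKM in the control (adjusted p = 0.0424). Chchd6 passed in 9 of the 16 alternatives, being lost without control replicate 1, 2 or 3 or knockdown replicate 6 (limma adjusted p = 0.0933 to 0.147), with no filter on low values (0.073), median centring (0.0765) and quantile normalisation (0.064). Dnm1l, the fission GTPase gene, had 11.8, 25.5 and 20.6 FPKM in the knockdown and 36.7, 30.2 and 30.9 FPKM in the control, without overlap, and did not pass (adjusted p = 0.0742). Its transcript has a GC content of 40.9%, and knockdown replicate 4 was again the lowest.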

How the data were processed

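Polyadenylated RNA was measured in 3 knockdown and 3 control samples; per the labels' protocols it was enriched on oligo(dT) beads and sequenced from DNA nanoballs. The authors deposited FPKM per gene, rounded to 2 decimals, with their log2 ratio, p-value and q-value. The aligner, counting program, build, annotation and the authors' test: not given in the sources used here, so none is named; no counts were used, so depth is unknown and no counting interval can be given. FPKM of a library summed to 661950 to 757026.

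Values were analysed as log2(FPKM + 1), which understates the change of low genes, for genes averaging 1 FPKM or more, with limma 3.58.1 in R 4.3.3 (two-sided, variance trend on intensity, Benjamini-Hochberg). Ratios are of mean FPKM. The fit was tested on simulated data with independent noise in each gene and library. These held no shift with GC content such as that of knockdown replicate 4, so that test does not cover it. GC content came from the longest coding transcript in GENCODE M21, matched by NCBI gene number for 98.5% of tested genes; the correction subtracts from each library a spline with 5 degrees of freedom and so also centres it. The carriers and related lists, the motifs and the rule for naming genes (called members, the 8 most abundant, those at the level limit, the extremes of each substrate group and up to 4 genes per related list) were chosen with earlier results of these data known. A few genes beyond that rule are named with their values. For 1 carrier and 1 related gene that are included in the counts, values are not reported here.

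Alternatives were other filters, a pseudocount of 0.1, TPM scaling, median centring, quantile normalisation, limma without the trend or with robust estimation, the GC correction and leaving out each library.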

Additional observations from a re-analysis of the deposited data

How the results depend on the processing

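No paired analysis was run: the groups share no replicate numbers, and the labels do not say whether knockdown and control samples were matched. The 8 called carriers kept their direction in each of 16 alternatives. Leaving out 1 library gave 309 to 1907 tested genes higher (2.97% to 18.3%) and 160 to 1082 lower (1.54% to 10.4%). Of the carriers, 0 to 10 were higher and 0 to 3 lower. Of the 84 tested related genes, 3 to 17 were higher and 1 to 8 lower. The carrier median log2 fold change was 0.029 to 0.10. The smaller counts came without a control library or knockdown replicate 6. The Slc25a24 share of its paralogs differed by -14.8 to -9.81 percentage points. With no filter on low values 3 carriers were higher and 1 lower. TPM scaling gave 1 carrier lower. It gave 14 of the 84 related genes higher and 4 lower, against 13.5% and 4.16% of all tested genes. Median centring gave 3 carriers and 5 related genes higher, against 8.12% of all tested genes, and a carrier median of 0.036. Quantile normalisation gave 4 related genes lower, against 7.61%. The GC correction gave 1232 genes (11.8%), 4 carriers and 4 related genes lower, and a carrier median of 0.093. With knockdown replicate 4 also left out, an alternative chosen after seeing the data, 1670 genes (16.1%), 5 carriers and 8 related genes were lower. In that setting 11 carriers were higher, against 16.3% of all tested genes. Over all genes the split of higher against lower calls was 1251 to 613, against 1404 to 433 with TPM scaling, 844 to 755 with median centring, 1129 to 791 with quantile normalisation and 1368 to 1232 after the GC correction.

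The sign turned in 12 of the 33 carriers, none of them called with all libraries and no correction. The farthest from 0 among them was Slc25a46, at -0.15. Among these carriers, Slc25a16, Slc25a28, Slc25a40 and Slc25a46 passed in some alternatives. The log2 fold change of Slc25a3 was -0.014 with TPM scaling, -0.024 with median centring, -0.025 with quantile normalisation, -0.016 after the GC correction and -0.12 with replicate 4 also left out. That of Slc25a22 was -0.012, -0.023, -0.00044, -0.16 and -0.13 under the same settings. Quantile normalisation gave -0.0023 for Slc25a17 and 0.053 for Slc25a47. The GC correction gave 0.093 for Slc25a46; with replicate 4 also left out Slc25a46 was at 0.22 (limma adjusted p = 0.0402), Slc25a11 at -0.041 and Slc25a37 at 0.012. Leaving out 1 library gave ranges of -0.092 to 0.025 for Slc25a5, -0.075 to 0.073 for Slc25a3, -0.26 to 0.056 for Slc25a37, -0.098 to 0.038 for Slc25a28, -0.11 to 0.24 for Slc25a40, -0.034 to 0.029 for Slc25a22, -0.35 to 0.14 for Slc25a46, -0.0095 to 0.17 for Slc25a14, -0.090 to 0.31 for Slc25a16 and -0.074 to 0.073 for Slc25a47. The cause of these shifts was not tested. The depth is unknown, so the size of difference that could be detected was not computed.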
